A study of Mus musculus with 18 samples.

Results

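Ezh1 and Ezh2 are 2 of the 64 genes on a focused mouse oligonucleotide array of Polycomb and Trithorax group genes, and they hold 4 of its 117 gene spots, a pair each. They were chosen by symbol, every spot that carries either name being used. The array was hybridised 18 times to RNA of 15 samples of mesenchymal stem cells, which came from the inguinal fat of mice of the FVB strain and were used within the fifth passage in culture. The groups differ in the age of the donor. Donors of 1 month gave 4 samples, those of 3, 6 and 12 months 3 samples at each age, and those of 24 months 2 samples, and the labels name no mutant allele and no drug. The labels number the samples within an age without saying that each came from a mouse of its own, so p-values here measure the spread between these samples. Fits over all 18 arrays measure mostly the spread between arrays.

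Ezh1 and Ezh2 encode the alternative catalytic subunits of Polycomb repressive complex 2 (PRC2), the enzyme complex that methylates a lysine of histone H3 and so marks genes for silencing. Either protein needs Eed, which binds the mark, and Suz12, the scaffold, to be active. Ezh2 is the form typical of dividing and embryonic cells and is induced with E2F-driven genes, while Ezh1 is the form known to persist in resting and differentiated cells. A decline of Ezh2 is known to go with activation of the Cdkn2a locus in ageing pancreatic islets and in senescing fibroblasts.

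The paralogues are separate genes with unlike start regions. The accession that the array gives for each gene matched a RefSeq entry on GRCm38.p6. Ezh1 is on chromosome 11, from 101191115 to 101226463, and Ezh2 on chromosome 6, from 47530274 to 47595270, both on the minus strand. The oligonucleotides on the array are not printed in the files used here, so the start regions are shown instead, to let the genes be told apart by sequence. Each runs from 250 bases before to 50 bases after the start used in the RefSeq promoter table, which for Ezh2 lies inside the gene span given above, 5′ to 3′ on the strand of the gene, at chr11:101226414-101226713 for Ezh1 and chr6:47594981-47595280 for Ezh2. Capitals mark the motifs TTTGGCGC (an E2F-type site) and CCAAT (bound by NF-Y), searched on both strands, so that ATTGG in capitals is CCAAT on the other strand.
Ezh1: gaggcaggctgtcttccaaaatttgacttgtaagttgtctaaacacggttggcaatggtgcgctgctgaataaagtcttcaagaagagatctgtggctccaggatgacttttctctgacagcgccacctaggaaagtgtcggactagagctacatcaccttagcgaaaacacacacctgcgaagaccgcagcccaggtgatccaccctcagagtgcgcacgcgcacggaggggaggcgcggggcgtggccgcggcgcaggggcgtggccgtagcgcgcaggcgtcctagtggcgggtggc
Ezh2: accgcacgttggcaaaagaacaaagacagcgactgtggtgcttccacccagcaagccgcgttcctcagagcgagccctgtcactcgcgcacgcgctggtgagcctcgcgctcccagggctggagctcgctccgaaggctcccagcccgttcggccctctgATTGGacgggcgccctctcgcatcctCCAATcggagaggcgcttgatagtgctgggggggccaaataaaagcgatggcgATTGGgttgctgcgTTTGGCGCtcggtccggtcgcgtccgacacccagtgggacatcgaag
TTTGGCGC occurs 1 time in the Ezh2 window and 0 times in that of Ezh1, and 0.514% of 32851 mouse promoter windows of the same length hold it. CCAAT occurs 3 times in the Ezh2 window and 0 times in that of Ezh1, against 37.4% of all windows with at least 1. A second E2F-type form, TTTCCCGC, was found in neither window and in 1.07% of all windows. The TATA box, searched as TATAAA on both strands, was also found in neither, against 13.6% of all windows. Both windows are rich in CpG, with 23 in that of Ezh1 and 31 in that of Ezh2, against a median of 7. These matches describe the sequence, and no binding or methylation was measured.

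The arrays fall into 2 sets by their names and their order in the sheets: a second set of 6 arrays and a first set of 12. The second set holds 3 arrays at 1 month, 1 at 12 months and both at 24 months, and the first set holds 3 arrays at each of 1, 3, 6 and 12 months. Samples 1 and 8 of 1 month have an array in each set, and sample 2 of 12 months has both of its arrays in the first. The median signal of the gene spots on an array had a median over arrays of 11660 in the second set and 21221 in the first set, in intensity units per pixel. Spots were marked present or absent by the authors, and 97.2% of 2106 calls fit a limit of 1.5 times the mean of the lower 75% of local backgrounds of the array. Detection in a sample means that 50% or more of the spots of the gene, over its arrays, carried a present call. No mesenchymal marker of the list used here is on the array, so the labelled cell type could not be checked, and the genes Itgb2, Nckap1l and Ctsg of blood cells and Darc of endothelium were detected in 0 of 15 samples and Krt17 of epithelium in 1. No marker of proliferation on that list is on the array either, so the division rate of the cells, to which Ezh2 is tied elsewhere, was not measured.

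Ezh1 was detected in 11 of 15 samples and Ezh2 in 1 of 15. From the youngest donors on, Ezh1 was detected at 1 month in 3 of 4 samples, at 3 months in 3 of 3, at 6 months in 3 of 3, at 12 months in 2 of 3 and at 24 months in 0 of 2. Ezh2 was detected in 1 of 4 samples at 1 month and in 0 samples at each later age. Sample 8 of 1 month was the sample in which both counted as detected. The brightest blank spot lay above the estimated limit of presence on every array, so a present call does not place a gene above all blank spots. Against the brightest blank or plasmid spot, Ezh1 counted in 5 of 15 samples and Ezh2 in 0 of 15. The brightness of a spot depends on its oligonucleotide, so the calls say which gene stood above the limit of the array and not which transcript was the more abundant. In such bulk RNA, fewer cells with a transcript and less of it per cell cannot be told apart.

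**Figure D1:**
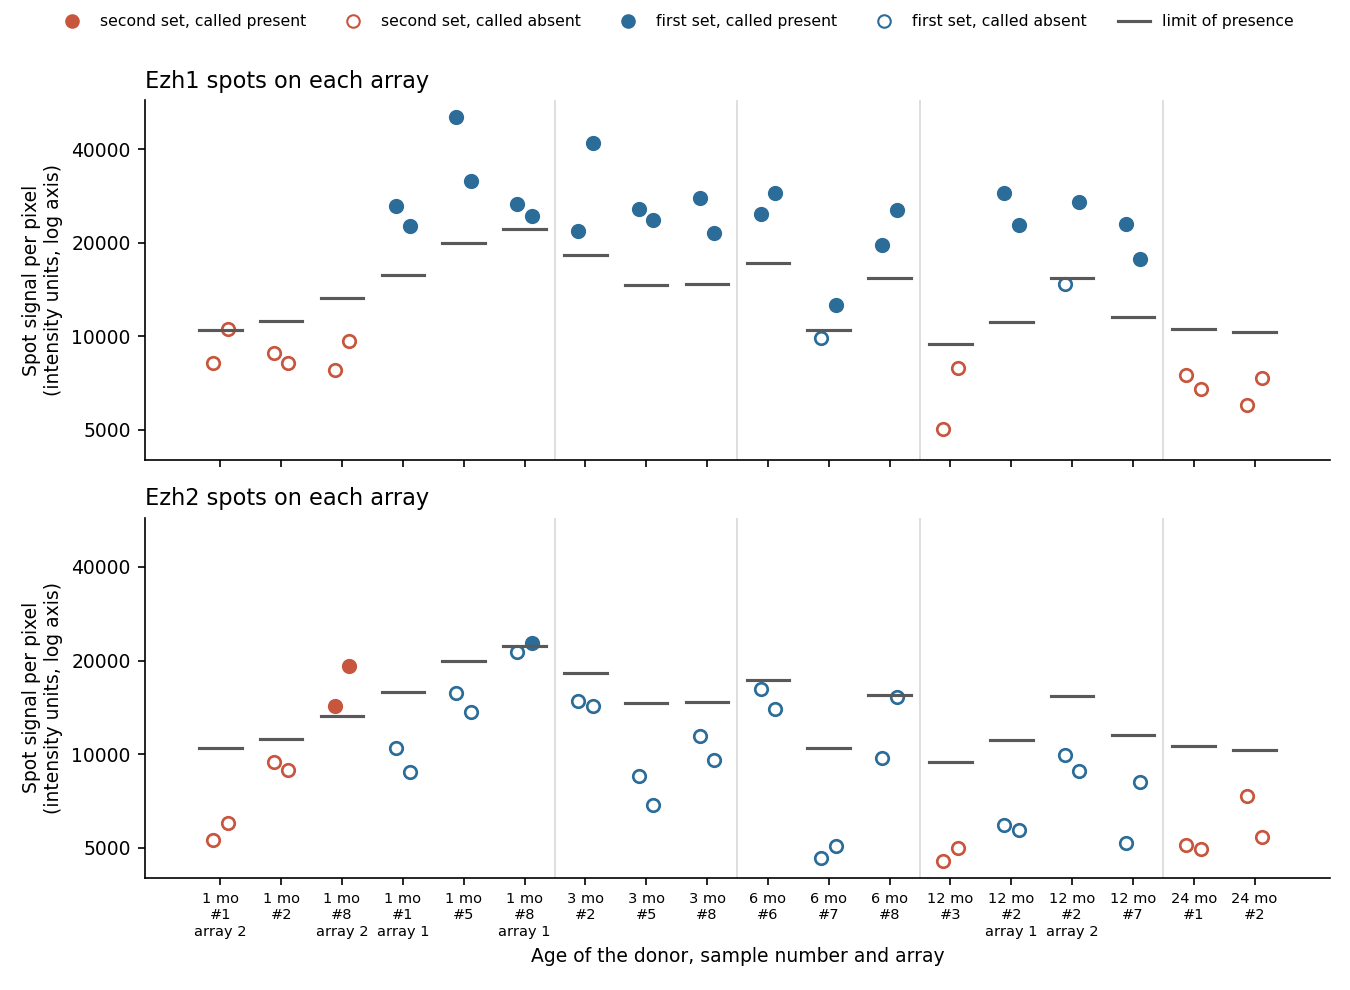
Signal per pixel of each Ezh1 spot (top) and Ezh2 spot (bottom) on the 18 arrays, on a log axis, ordered by age and, within an age, with the second set of arrays left of the first. Filled points were called present and open points absent, and the bars mark the estimated limit of presence of each array. Ezh1 has 0 of 12 spots present in the second set and 22 of 24 in the first, while Ezh2 has 3 spots present, all in sample 8 of 1 month.

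The detection of Ezh1 followed the set of arrays. On the second set 0 of 12 Ezh1 spots were called present, and on the first set 22 of 24 were. The mean Ezh1 signal of an array lay between 6472 and 9382 on the second set, with a median of 7836, and between 11277 and 41263 on the first set, with a median of 24642. The sets do not overlap. Relative to the limit of its own array, Ezh1 stood at 0.65 to 0.90 of the limit on the second set and at 1.08 to 2.32 times the limit on the first. These are means of the pair on an array. The nearest approach was a spot at 10578 on the second-set array of sample 1 of 1 month, which was called absent at 1.01 times the estimated limit, and the dimmest gene spot called present there had 11193. The absent Ezh1 spots of the first set were 1 of the pair in sample 7 of 6 months and 1 of the pair on array 2 of sample 2 of 12 months. Duplicate Ezh1 spots of an array differed by a median of 0.30 on the log2 scale in the second set and 0.36 in the first.

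Part of the gap is shared by the arrays as a whole. The median over arrays of the Ezh1 signal was 3.14-fold lower in the second set than in the first, the median gene signal 1.82-fold lower and the limit of presence 1.47-fold lower. In the authors' deposited table, where the summed signal is divided by the housekeeping spots, the Ezh1 ratio lay between 0.105 and 0.15 on the second set and between 0.18 and 0.66 on the first. For Ezh2 that table gives 0.075 to 0.27 on the second set and 0.075 to 0.35 on the first. Ezh1 alone of the pair is thus separated by set in that table. The share of the other genes there that are separated by set was not counted. The median Ezh1 ratio was 0.125 on the second set and 0.39 on the first, a gap about as wide as that of the raw signal. The ratio was therefore not shown to remove the brightness shared by an array.

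For the tests the signals were background-corrected and quantile normalised, which gives every array the same distribution of spot values, and are given as log2 levels. With age in the model and the sample as a random block over the 18 arrays, Ezh1 differed by -1.51 between the second and the first set (SE 0.30, 95% interval -2.15 to -0.87, adjusted p 0.00275 in limma). The correlation between arrays of a sample was estimated at 0.034 in this fit, so repeat arrays counted almost as separate samples. In the fit over all genes, given below, the estimate was -0.17. Ezh1 levels were 12.25 ± 0.37 on the second set (SD, n = 6 arrays, 11.86 to 12.75) and 13.82 ± 0.46 on the first (n = 12 arrays, 12.96 to 14.63). The test called 9 of 38 genes, or 23.7%, of which 5 were lower in the second set (13.2%). A gap with every second-set array below every first-set array was found for 4 of the 38 genes (10.5%): Ezh1, Arid1a, Phc2 and Sirt1. The 38 genes are those detected in 2 or more of 15 samples, and Ezh1 met this through first-set arrays alone. Its place among them is thus not independent of the set, which limits these shares as a background. In the fit without this filter Ezh1 differed by -1.55 (SE 0.32, 95% interval -2.23 to -0.86, adjusted p 0.00545 in limma). Ezh1 had the third lowest of the 38 estimates, after Arid1a, a SWI/SNF subunit, at -1.96 and the Polycomb chromodomain gene Cbx7 at -1.70, which was not called. Since Ezh1 was absent on every second-set array, its measured fold is not exact. Each of those arrays was also set to the higher of its lowest detected gene and its own Ezh1 level. The gap was then 1.83-fold, with measured means of 12.25 in the second set and 13.82 in the first set (6 and 11 samples). This figure has no age term and no sampling error, so it is not a minimum. It includes sample 3 of 12 months, whose lowest detected gene, at 14.12, lay above the first-set mean of Ezh1.

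Used on the same values, the local background beside each spot ends this call, with a difference of -0.62 (adjusted p 0.0805 in limma). The direction was negative under each other scaling, background correction and omission of a sample that was tried. In the fit over all 64 genes Ezh2 differed by -0.30 between the second and the first set (SE 0.67, 95% interval -1.76 to 1.16, adjusted p 0.854 in limma, where 16.9% of features were called), an interval that holds both no change and the Ezh1 value. The difference between the paralogues in this shift, Ezh1 minus Ezh2, was -1.24 (SE 0.83, 95% interval -3.05 to 0.56, adjusted p 0.417 in limma), so a larger shift of Ezh1 was not shown.

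**Figure D2:**
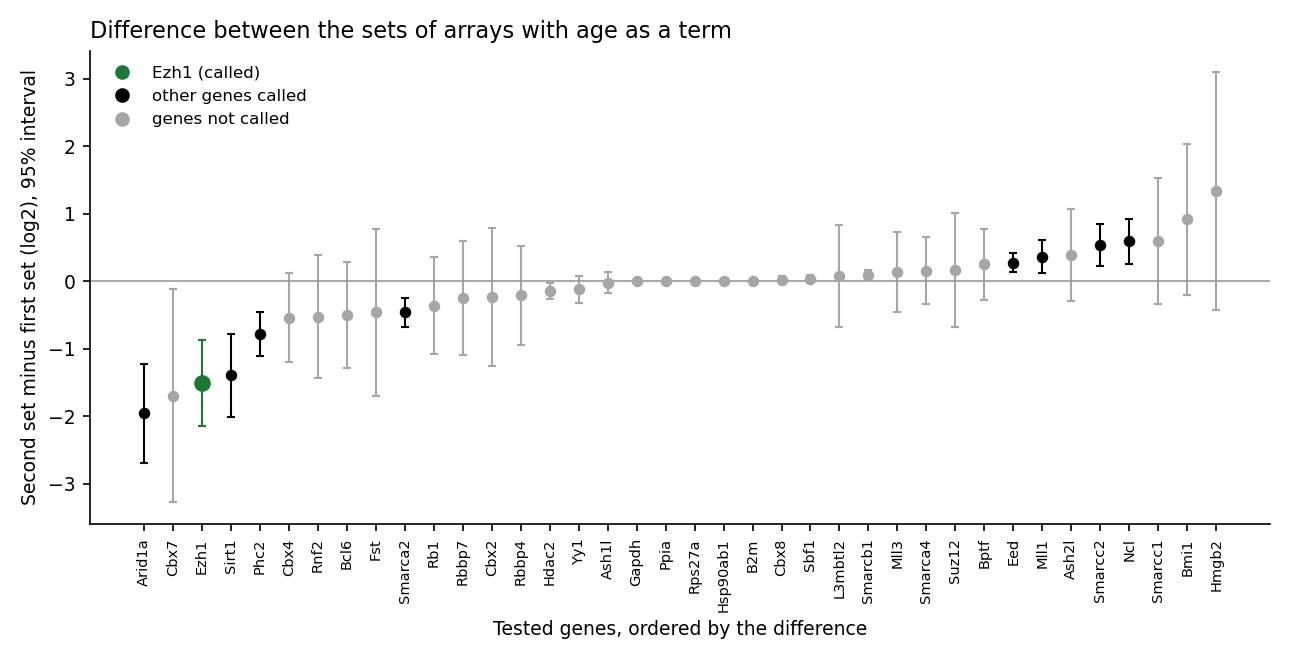
Difference between the second and the first set of arrays (log2, points with 95% intervals) for each of the 38 tested genes, from the fit with age as a term over 18 arrays. Ezh1 (green) lies at -1.51, among the lowest values, and the 8 other genes called (black) lie on both sides of 0.

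The samples with 2 arrays compare the same RNA source with itself. In sample 1 of 1 month, the Ezh1 spots had 8185 and 10578 on the second-set array, both absent, and 26375 and 22696 on the first-set array, both present. In sample 8 of 1 month they had 7790 and 9635 on the second-set array, both absent, and 26602 and 24392 on the first-set array, both present. After normalisation the Ezh1 signal differed between the second-set and the first-set array by -1.11 in sample 1 and -1.10 in sample 8. Ezh1 was absent on these second-set arrays, and the same construction was used for the gap. In sample 1 it gave 2.17-fold, which is the measured gap, since Ezh1 at 12.75 lay above the lowest detected gene there, at 12.43. In sample 8 the lowest detected gene lay above Ezh1, and the gap to that gene was 1.18-fold. Each figure is from 1 array against 1 and carries no sampling error. In sample 2 of 12 months, with both arrays in the first set, array 2 differed from array 1 by -0.76 (levels 13.52 and 14.28), so repeat arrays of a set can also differ by much of this size. Against the 64 genes of each pair of arrays, the Ezh1 differences were the ninth, the eighth and the eleventh from the lowest. Among the genes detected on either array of the pair they ranked 5 of 38, 3 of 39 and 4 of 37 from the lowest.

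Ezh2 went another way in sample 8. Its spots had 14292 and 19220 on the second-set array, both called present, and 21356 and 22735 on the first-set array, with 1 called present. Thus the same sample has Ezh2 and not Ezh1 present on the second-set array, and both Ezh1 spots with 1 Ezh2 spot present on the first-set array. The normalised Ezh2 level was 13.31 on the second-set array and 12.55 on the first-set array, a difference of 0.76. In sample 1 Ezh2 differed by -0.94 (10.73 and 11.67), with 0 spots present on either array. In sample 2 of 12 months it differed by 0.82 between array 2 and array 1 (11.86 and 11.04), with 0 spots present on either. The differences in sample 1 of 1 month and sample 2 of 12 months are between spots called absent. In sample 8 the mean Ezh2 signal per pixel before normalisation was 16756 on the second-set array and 22046 on the first-set array, so the sign of that difference turns with the normalisation.

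**Figure D3:**
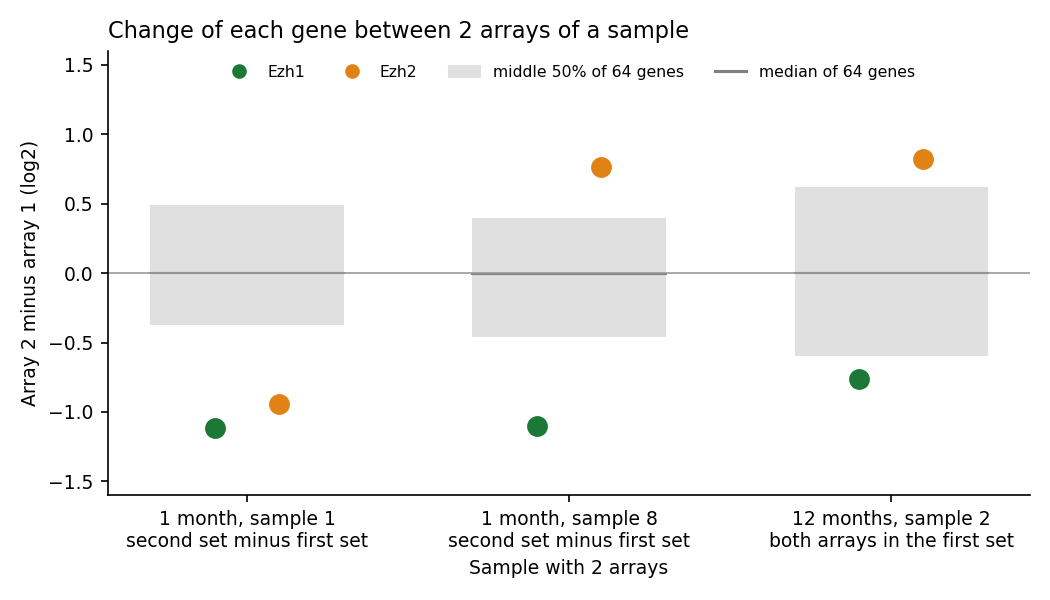
Normalised log2 difference between array 2 and array 1 of each sample with 2 arrays, for Ezh1 (green) and Ezh2 (orange), with the middle 50% of the 64 genes as a grey box. Ezh1 is at -1.11, -1.10 and -0.76, and Ezh2 is at -0.94, 0.76 and 0.82.

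The Ezh1 levels by age carry this set structure. At 1 month they were 13.31, 12.63, 14.63 and 12.41 in samples 1, 2, 5 and 8 (13.24 ± 1.00, SD, n = 4). At 3 months they were 13.75, 14.004 and 14.44 in samples 2, 5 and 8 (14.06 ± 0.35, n = 3). At 6 months they were 13.47, 13.66 and 13.55 in samples 6, 7 and 8 (13.56 ± 0.09, n = 3). The highest 1-month level, in sample 5, is that of the only 1-month sample with a first-set array alone, and the 3- and 6-month samples were all run on that set. At 12 months the levels were 13.90, 12.11 and 13.76 in samples 2, 3 and 7 (13.26 ± 1.00, n = 3), and sample 3, the low one, is the second-set sample. At 24 months they were 12.24 and 11.92 in samples 1 and 2 (12.08 ± 0.22, n = 2), both on the second set.

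Ordered by mean, Ezh1 was highest at 3 months, then at 6, 12, 1 and 24 months. The means at 6 and 12 months and at 12 and 1 months differed by less than the spread of the samples. The 3-month samples all lay above the 6-month samples, by 0.50 in the mean, with an exact two-sided permutation p of 0.10, the smallest that 3 against 3 can give. The share of tested genes without overlap between these ages was not counted, so the separation is not shown to be particular to Ezh1. Both 24-month samples lay below every 1-month sample (exact permutation p 0.133, the smallest that 2 against 4 can give). Of the 38 tested genes, 28.9% had 24-month samples that did not overlap the 1-month samples, in either direction. Because the 24-month samples were run on the second set alone, that age and the set cannot be told apart except through the 1- and 12-month arrays of the same set.

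None of the age comparisons of Ezh1 passed. The limma F-test over the 5 ages gave F = 2.48 (adjusted p 0.273), where 0 of 38 genes were called (0%) and 13 had an unadjusted p under 0.05. The slope was -0.17 per doubling of age (SE 0.13, adjusted p 0.621 in limma), with 0 genes called (0%) and 4 at an unadjusted p under 0.05. Against 1 month, Ezh1 differed by 0.82 at 3 months (SE 0.54, adjusted p 0.536 in limma), with 3 of 3 samples above the 1-month mean. At 6 months it differed by 0.32 (SE 0.54, adjusted p 0.869 in limma), where 1 gene was called (2.63%), and at 12 months by 0.01 (SE 0.54, adjusted p 0.995 in limma). At 24 months it differed by -1.16 (SE 0.61, 95% interval -2.51 to 0.19, adjusted p 0.321 in limma), with 2 of 2 samples below the 1-month mean. At 3, 12 and 24 months 0 genes were called (0% each), with 5, 2 and 6 at an unadjusted p under 0.05. As Ezh1 was absent on both 24-month arrays and on 3 of the 6 arrays of 1 month, no fold is given for it.

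With the set as a term the 24-month difference shrank to -0.29 (SE 0.39, adjusted p 0.987 in limma), the 3-month difference to 0.19, and the 6- and 12-month differences were -0.31 and -0.08. Within the second set alone Ezh1 differed from 1 month by -0.30 at 12 months and -0.33 at 24 months. Within the first set alone it differed by 0.25 at 3 months, -0.26 at 6 months and 0.02 at 12 months. None of these passed the test in limma, and the pooled differences at 3 and 24 months are larger than those within a set.

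**Figure D4:**
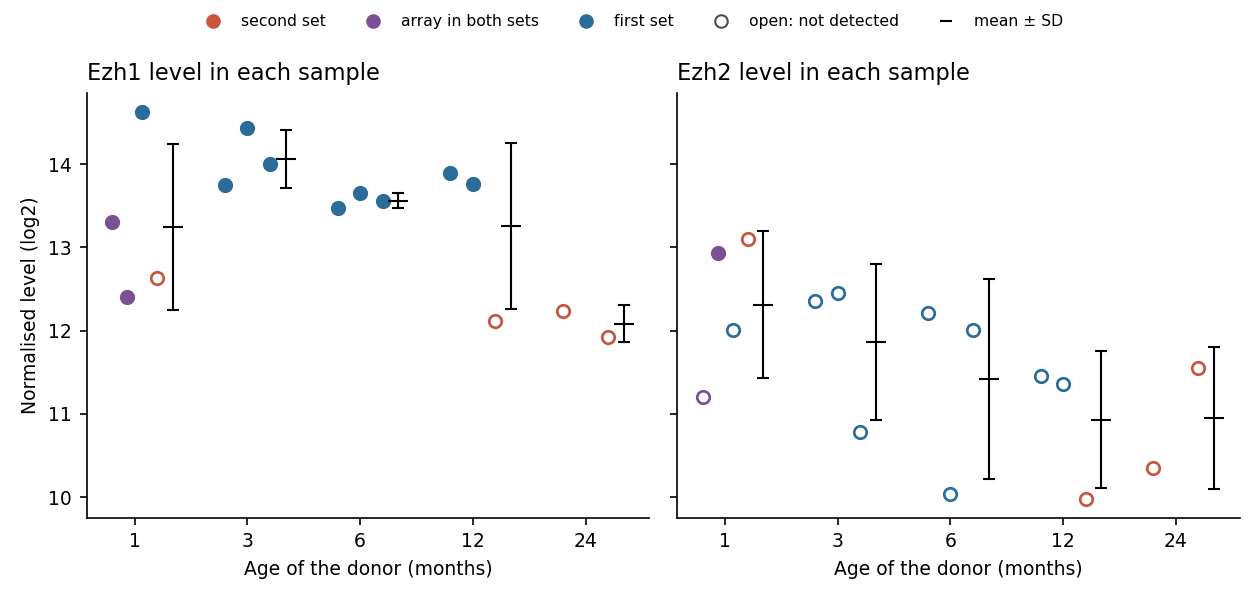
Normalised log2 level of Ezh1 (left) and Ezh2 (right) in each of the 15 samples by age of the donor, coloured by the set of arrays, with filled points for samples in which the gene was detected and the mean ± SD beside them. The samples of Ezh1 with an array in the second set alone sit at 11.92 to 12.63, below all samples with arrays in the first set alone, while the second-set samples of Ezh2 run from 9.98 to 13.11.

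Ezh2 had lower mean levels at every later age than at 1 month, and none of the differences passed. At 1 month its levels were 11.20, 13.11, 12.01 and 12.93 in samples 1, 2, 5 and 8 (12.31 ± 0.88, SD, n = 4). At 3 months they were 12.35, 10.79 and 12.45 in samples 2, 5 and 8 (11.86 ± 0.93, n = 3), and at 6 months 12.21, 10.03 and 12.00 in samples 6, 7 and 8 (11.41 ± 1.201, n = 3). The low samples, 5 of 3 months and 7 of 6 months, stand more than 1 log2 unit under the others of their age. At 12 months the levels were 11.45, 9.98 and 11.35 in samples 2, 3 and 7 (10.93 ± 0.82, n = 3), and at 24 months 10.35 and 11.56 in samples 1 and 2 (10.95 ± 0.85, n = 2). Ordered by mean, at 1, 3, 6, 24 and 12 months, every neighbouring pair of ages overlapped, with exact permutation p-values of 0.5 to 0.8. In 14 of 15 samples these levels lie under the limit of presence, so they are neither exact nor an upper bound of the transcript and give no fold.

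Ezh2 was not among the 38 tested genes and was read from the fit over all 64 genes, whose values for it compare signals that lie mostly under the limit of presence. Its slope was -0.34 per doubling of age (SE 0.13, unadjusted p 0.0241, adjusted p 0.381 in limma, 0% of features called). In the order 3, 6, 12 and 24 months, the differences from 1 month were -0.45, -0.90, -1.38 and -1.36, with SEs of 0.70, 0.70, 0.70 and 0.80 and adjusted p-values in limma of 0.822, 0.508, 0.647 and 0.446. In this fit 0% of features were called at each age. Of the later samples, 2 of 11 lay above the 1-month mean, both at 3 months. With the set as a term the slope was -0.31 (adjusted p 0.336 in limma), and it was -0.38 within the second set and -0.21 within the first.

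The paralogues were compared through the change of their difference, Ezh1 minus Ezh2, since its size within a sample depends on the oligonucleotides. Ezh2 was not detected in 14 of 15 samples and Ezh1 in 4, so these values compare normalised signals, in part below the limit of presence, and are no ratio of transcripts. At 1 month the difference was 2.11 in sample 1, -0.47 in sample 2, 2.61 in sample 5 and -0.53 in sample 8 (0.93 ± 1.66, n = 4). At 3 months it was 1.40, 3.22 and 1.98 in samples 2, 5 and 8 (2.1995 ± 0.93, n = 3), and at 6 months 1.27, 3.62 and 1.55 in samples 6, 7 and 8 (2.15 ± 1.29, n = 3). At 12 months it was 2.44, 2.13 and 2.41 in samples 2, 3 and 7 (2.33 ± 0.17, n = 3), and at 24 months 1.89 and 0.37 in samples 1 and 2 (1.13 ± 1.08, n = 2). The 1-month samples split into a pair above 2 and a pair below 0, and the values below 0 are those of samples 2 and 8, which have the highest Ezh2 and the lowest Ezh1 levels of that age. In sample 2 both genes were absent on its array, a second-set one.

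Relative to 1 month the difference was larger by 1.27 at 3 months (95% interval -0.70 to 3.24), 1.21 at 6 months (-0.75 to 3.18), 1.40 at 12 months (-0.57 to 3.36) and 0.20 at 24 months (-2.03 to 2.43). The adjusted p-values in limma were 0.596, 0.503, 0.866 and 0.997. Exact two-sided permutation tests over the samples gave p of 0.40, 0.343, 0.343 and 0.80, or 0.533, 0.533, 0.533 and 0.80 adjusted over the 4 comparisons. The smallest p these can give is 0.0571 for 3 against 4 samples and 0.133 for 2 against 4. All 9 samples of 3, 6 and 12 months lay above the 1-month mean, and 1 of 2 at 24 months did. The 4 comparisons share the 1-month samples, and the intervals leave room for a change of either sign.

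**Figure D5:**
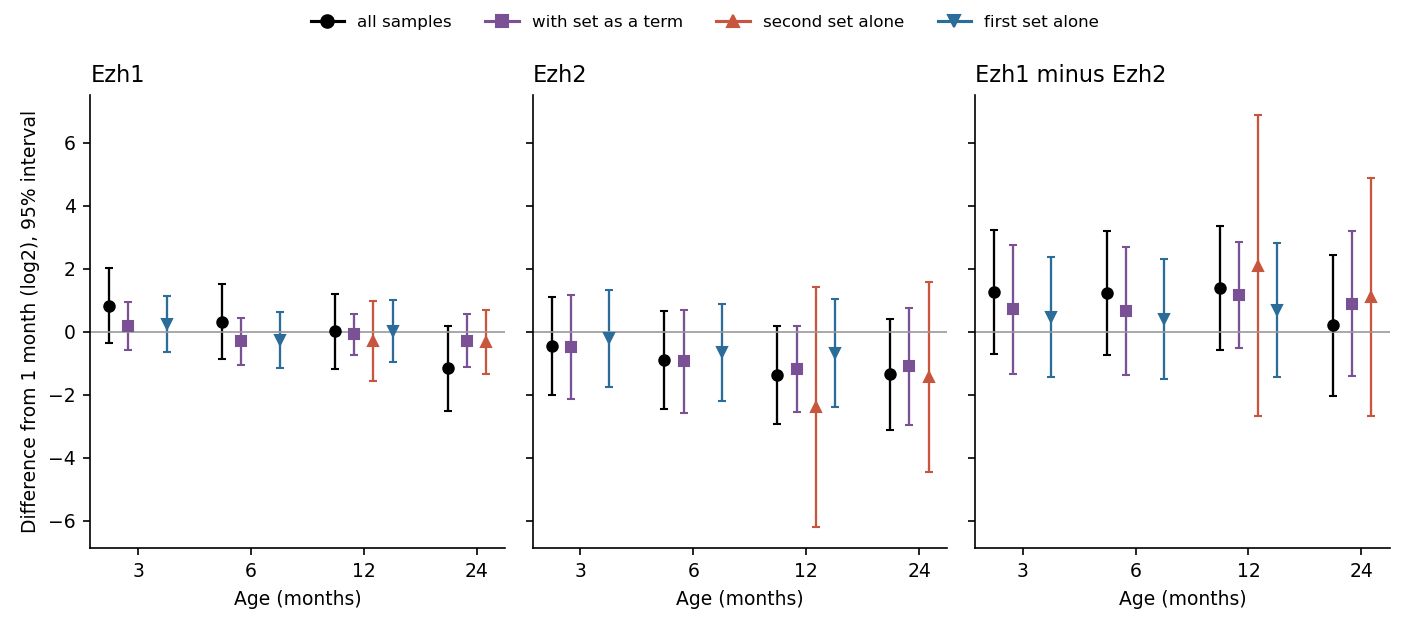
Log2 difference from 1 month at 3, 6, 12 and 24 months for Ezh1, Ezh2 and Ezh1 minus Ezh2, with 95% intervals, over all samples, with a term for the set, and within each set where it holds the age. The Ezh1 values within sets lie between -0.33 and 0.25, and every interval drawn includes 0.

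The other PRC2 genes give the setting. Of a list of 9 subunits and partners, 5 are on the array and 4 were tested. Eed and the histone-binding gene Rbbp7 were detected in 15 of 15 samples, the scaffold gene Suz12 in 13, the histone-binding gene Rbbp4 in 10 and the accessory gene Phf1, which helps the complex bind chromatin, in 1. None of the 4 was called in any age comparison, in either direction. Over the 5 ages Rbbp4 had F = 7.46 (adjusted p 0.0666 in limma), equal to the lowest adjusted p of the tested genes. The adjusted p over the ages in limma was 0.137 for Eed, 0.137 for Rbbp7 and 0.545 for Suz12. Rbbp4 differed from 1 month by -0.90 at 6 months (adjusted p 0.0833 in limma), -0.82 at 12 months (0.489) and -0.63 at 24 months (0.321). Suz12 differed by -0.88 at 6 months, -0.82 at 12 months and -0.80 at 24 months (adjusted p in limma 0.278, 0.995 and 0.447). Rbbp7 differed by -1.05 at 6 months (adjusted p 0.0865 in limma) and by -0.04 at 24 months. Between the sets Eed rose by 0.27 in the second set (SE 0.07, adjusted p 0.00898 in limma), opposite in direction to Ezh1, and Suz12, Rbbp4 and Rbbp7 were not called (0.17, -0.21 and -0.25).

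Among the 38 tested genes, the levels most like those of Ezh1 over the 15 samples were those of the PRC1 gene Phc2 (Pearson r 0.79), the SWI/SNF ATPase gene Smarca2 (0.79) and the deacetylase gene Sirt1 (0.73). Each of these 3 is among the 5 genes called lower in the second set. Within the first set alone (11 samples) their r with Ezh1 was -0.39, 0.50 and -0.33, and within the second set (6 samples) 0.30, 0.59 and 0.62. The largest coefficient of either sign over the 15 samples was negative, that of Eed at -0.91. For Eed it was -0.74 within the first set and -0.22 within the second, and Eed was called higher in the second set. The highest values within the first set were those of Ash2l, a subunit of Trithorax-type methyltransferase complexes, at 0.62, Gapdh at 0.57 and Rbbp7 at 0.54, and within the second set these were 0.32, -0.88 and -0.05. Gapdh is a housekeeping gene whose spots are near the maximum of the scanner. Ezh1 and Ezh2 themselves had an r of -0.10 within the second set and -0.06 within the first. These coefficients describe arrays that share a normalisation, and no test was made of them.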

How the data were processed

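The deposited raw sheet gave the intensity of each spot, a sum over its pixels, and a local background, per the file headers, and other sheets gave the authors' present, absent and bleeding marks. The deposited series table gives a ratio for 49 genes that the authors formed by scaling to housekeeping spots, and its values were recomputed to within 0.0071. The scanner software is not given in the sources used here. RNA was amplified and biotin-labelled, per the labels' protocols. The sheets also hold 5 arrays of other samples, which are not used here.

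Intensity was divided by spot area, corrected with normexp (offset 50) without the local background, quantile normalised over 117 gene spots, and averaged over spots and over arrays of a sample. Ages were compared with limma 3.58.1 (R 4.3.3) over the 38 genes that 2 or more of the 15 samples detected. Ezh2 and Ezh1 minus Ezh2 came from a fit of 65 rows: the 64 genes and that difference. P values were adjusted by Benjamini-Hochberg at 0.05. Intervals are unadjusted. Precision is limited by the number of arrays. The fits were tested on simulated data. Permutation tests used scipy 1.17.1.

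Named were Ezh1, Ezh2, the PRC2 list and the 3 genes with the highest r with Ezh1 over 15 samples and over the first set. Arid1a, Cbx7 and the members of the set calls were named after their values were seen. The members and lists were chosen with earlier results of these data known. The sets of arrays were read from array names and order, and no label gives a date. A part of the genes is not reported here.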

Additional observations from a re-analysis of the deposited data

How the results depend on the processing

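No alternative called Ezh1, Ezh2 or their difference in any age comparison, and the values that changed sign were all from differences that had not passed. For Ezh1 at 6 months these were -0.034 with the local background, -0.31 with a term for the set and -0.26 within the first set. For Ezh1 at 12 months they were -0.28 with housekeeping scaling, -0.19 with the authors' ratios, -0.00052 with summed intensity, -0.14 with the first array of each sample, -0.082 with a term for the set, -0.30 within the second set, -0.022 with the replicate block, and -0.26 without the second arrays of 1-month samples, an alternative chosen after seeing the data. For Ezh1 minus Ezh2 at 24 months they were -0.25 with the authors' ratios, -0.18 with no background correction, -0.35 with the local background, and -0.057 with the first array of each sample and -0.057 without the second arrays of 1-month samples. Leaving out each sample in turn gave -0.31 to 0.59 for Ezh1 at 12 months, -0.82 to 0.090 for Ezh2 at 3 months and -0.56 to 0.96 for the difference at 24 months. It gave -1.66 to -1.28 for Ezh1 between the sets, which kept its call each time, and of the other alternatives tried only the local background ended the call (-0.62). The slopes of Ezh1 and Ezh2 stayed negative in every alternative tried, at -0.32 to -0.04 and -0.49 to -0.10. A filter on dim genes gives no value for Ezh2, which it leaves out.

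Ezh1 was detected in 7 samples when all spots had to be present and in 5 when they had to exceed the brightest blank or plasmid spot, and Ezh2 in 0 and 0, against 11 and 1. Numbers of genes called over ages were 1 with median centring, 2 and 1 within the first and the second set, and 9 with array weights, and 0 to 2 leaving out samples. At 6 months they were 0 with median centring, housekeeping scaling, the authors' ratios, summed intensity, no filter, 18 arrays with the sample as a block, and the set as a term, 2 with no background correction and with first arrays, 3 within the first set and 3 without the second arrays of 1-month samples, and 0 to 2 leaving out samples. At 12 months 1 was called within each set. Between sets 21 were called with median centring, 16 with the authors' ratios and 3 with the local background, and 8 to 12 leaving out samples. The causes were not tested. With the replicate number as a random block, Ezh1 at 24 months was -1.19 and the block changed no call. Samples with the same number deviated from their age means with r of -0.42 to 0.40 over 12 pairs, 6 of them over 0.1. Since not every pair is over 0.1 and no label says what a number marks, the numbers were not taken to pair the samples, and a link is not excluded. Leaving out a 24-month sample leaves 1, whose spread is assumed to be that of the other groups. Dim spots limit Ezh2 at all ages and Ezh1 on the second set.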

Other observations

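Some blank spots were bright relative to both paralogues, and the brightest blank spot of each array lay above its estimated limit of presence. Ezh1 exceeded the brightest blank or plasmid spot of its array in at least 50% of its spots in 5 of 15 samples, with 1 sample at 1 month, 2 at 3 months, 1 at 6 months, 1 at 12 months and 0 at 24 months, and Ezh2 did so in 0 of 15. The Ezh1 spot at 5996 per pixel in sample 2 of 24 months has a local background above its own signal, at 0.43 times that background. On the same array an Ezh2 spot at 7347 per pixel also lay below its local background, at 0.85 times it.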
